A study of Homo sapiens with 4 samples.

Results

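The androgen-synthesis enzymes examined here are the genes AKR1C1, AKR1C2, AKR1C3, SRD5A1, SRD5A3, HSD3B1, HSD17B6, HSD17B11, CYP17A1 and STS. They were taken by gene name from a table of estimated counts for 22637 genes, and 7 of the 10 genes were analyzed. AKR1C1, AKR1C3 and CYP17A1 were not analyzed here. RNA-seq was performed on 4 human prostate cancer cell lines with 1 library per line. Of the parental lines, LNCaP responds to androgen and is castration-sensitive, and C4-2B, itself of LNCaP origin, is castration-resistant. LN-OlapR and 2B-OlapR are their sublines made resistant to olaparib, an inhibitor of the DNA repair enzymes PARP1 and PARP2, by long culture in rising doses of the drug. All 4 lines are labelled prostatic adenocarcinoma and untreated, and the sublines, otherwise kept in olaparib, spent 48 hours off the drug before RNA isolation. Whether a subline is a single clone is not given in the sources used here.

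Androgens are made from cholesterol by enzymes that act one after another. Mitochondrial CYP11A1 cuts the side chain of cholesterol, CYP17A1 makes the adrenal androgen DHEA from pregnenolone, and HSD3B1 oxidizes DHEA to androstenedione. Enzymes of the AKR1C and HSD17B families then add or remove hydrogen on the steroid, and 5α-reductases turn testosterone into dihydrotestosterone, the strongest natural ligand of the androgen receptor. Prostate tumors that grow under castration are known for making androgens from circulating adrenal precursors, with AKR1C3 as the enzyme that reduces androstenedione to testosterone and STS as the enzyme that frees DHEA from its sulfate.

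AKR1C1, AKR1C2 and AKR1C3 lie beside each other on chromosome 10 and are near copies, which bears on how reads can be assigned to them. In the GENCODE release 29 annotation of GRCh38, the build named in the submitters' processing notes, AKR1C2 lies at 4987400 to 5018031 of chromosome 10 (minus strand). Its coding sequence of 972 bases differed from that of AKR1C1 at 19 positions (98.0% identical) and from that of AKR1C3 at 87 (91.0% identical). The first 240 coding bases of each gene, read from the GENCODE transcripts, are printed to show how close they are. Capitals mark the bases at which AKR1C1 or AKR1C3 differs from AKR1C2, 11 in AKR1C1 and 24 in AKR1C3.
AKR1C2: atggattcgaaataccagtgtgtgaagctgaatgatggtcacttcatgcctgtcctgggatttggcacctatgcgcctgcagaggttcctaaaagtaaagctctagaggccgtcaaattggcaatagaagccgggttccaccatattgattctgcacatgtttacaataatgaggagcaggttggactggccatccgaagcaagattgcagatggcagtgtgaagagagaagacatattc
AKR1C1: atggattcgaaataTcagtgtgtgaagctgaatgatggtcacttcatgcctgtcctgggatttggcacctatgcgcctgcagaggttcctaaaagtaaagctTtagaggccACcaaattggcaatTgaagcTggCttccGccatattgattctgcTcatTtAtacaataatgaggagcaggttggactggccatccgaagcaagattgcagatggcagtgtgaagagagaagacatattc
AKR1C3: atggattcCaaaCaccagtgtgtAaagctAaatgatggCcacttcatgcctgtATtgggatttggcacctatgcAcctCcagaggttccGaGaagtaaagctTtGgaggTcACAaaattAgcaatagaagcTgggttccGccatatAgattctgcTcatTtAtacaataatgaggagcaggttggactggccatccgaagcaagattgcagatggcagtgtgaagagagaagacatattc

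Of the windows of 50 bases in the longest AKR1C2 transcript, 52.2% also occurred in transcripts of another gene, and 50.8% in those of AKR1C1. The same share was 8.42% for HSD3B1, whose windows were shared with HSD3B2 and the pseudogenes HSD3BP2 and HSD3BP4, and 3.81% for HSD17B11. It was 1.12% for SRD5A1, 0.773% for SRD5A3, 0.0927% for STS and 0 for HSD17B6. How reads common to AKR1C genes were assigned is not given in the sources used here, so the AKR1C2 values are uncertain, and its deposited value in LNCaP was 11.5 counts before rounding.

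Totals ranged from 19950537 to 26394267 counts per library. Levels are given as counts and as normalized CPM, the counts per 1000000 of a library size scaled by the TMM method. The ratio of each pair of libraries is a log2 ratio with 0.5 counts added to each. No line had a replicate library, so no p-value is given, and the 95% intervals reflect counting error alone. Ratios were counted for genes that averaged 1 normalized CPM or more in the 2 libraries compared, which 5 of the 7 enzymes did. AKR1C2 and HSD3B1 fell under this minimum. All 11 luminal prostate markers were expressed, and their summed level ranged from 4045 normalized CPM in LNCaP to 7315 in LN-OlapR. KLK3, the androgen-induced gene of prostate-specific antigen, had 53.1 normalized CPM in LNCaP and from 1870 to 2685 in the other 3 libraries. Its part in the differences between LNCaP and the other lines was not tested. Of 11 markers of adrenal cortex and gonad, 2 were analyzed, CYP11A1 and STAR, with a summed level of 0.483 to 2.83 normalized CPM. Of 11 basal, stromal and immune markers, 4 were analyzed, KRT14, COL1A1, PDGFRB and CD68, and their sum was 16.4 normalized CPM in LNCaP against 16.0 in LN-OlapR, and 23.6 in C4-2B against 11.1 in 2B-OlapR. The part of these markers in the results was not tested. In these bulk libraries, fewer cells expressing a gene and less RNA per cell cannot be told apart.

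SRD5A1 and SRD5A3, annotated as steroid 5α-reductases, were the most abundant of the enzymes. SRD5A1 reduces testosterone and androstenedione at the 5α position, while SRD5A3 is best known as the polyprenol reductase of dolichol synthesis, needed for N-glycosylation. Compared per length, as transcripts per 1000000 (TPM) over the longest GENCODE transcript of each gene, SRD5A3 was highest in each library, with 26.9 TPM in LNCaP against 24.1 in LN-OlapR, and 18.9 in C4-2B against 17.5 in 2B-OlapR. SRD5A1 was next, with 9.76 TPM in C4-2B at the lowest and 15.5 in LN-OlapR at the highest. HSD17B11 followed with 7.05 to 12.0 TPM, then STS with 3.31 to 7.69 TPM and HSD17B6 with 2.25 to 4.02 TPM. HSD3B1 and AKR1C2 were last, with at most 0.392 TPM for HSD3B1 and 0.274 for AKR1C2. In the library with the highest value, these 2 levels were higher than those of only 16.3% and 12.1% of the genes in the table. Neighbors in this order had overlapping counting intervals for STS and HSD17B6 in LNCaP, for SRD5A1, HSD17B11 and STS in C4-2B, and for HSD3B1 and AKR1C2 in LNCaP and 2B-OlapR. In C4-2B, AKR1C2 had no count, and its upper limit of 0.118 TPM was below the HSD3B1 interval of 0.147 to 0.807 TPM. With the median transcript length in place of the longest, HSD17B6 was above STS in LNCaP (1.58 against 1.39 TPM) and in LN-OlapR (2.37 against 2.03 TPM), and AKR1C2 was above HSD3B1 in LNCaP (0.644 against 0.297 TPM) and in 2B-OlapR (0.201 against 0.185 TPM).

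**Figure D1:**
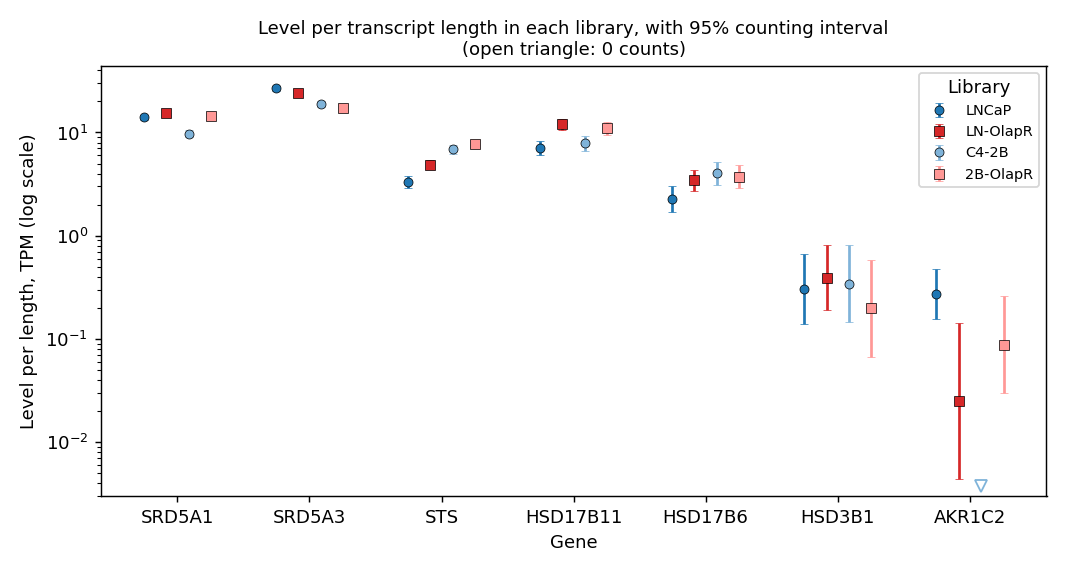
Level per length of the 7 enzymes (x axis) in TPM on a log scale (y axis), with 1 point per library and bars for the 95% counting interval. SRD5A3 and SRD5A1 stand at 9.76 to 26.9 TPM, while HSD3B1 and AKR1C2 stay at or under 0.392 TPM in each library.

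To see how olaparib-resistant lines differed from their parental lines, each enzyme was compared within the LN pair (LN-OlapR over LNCaP) and the 2B pair (2B-OlapR over C4-2B). In both pairs, HSD17B11, SRD5A1 and STS were higher in the resistant line, by 1.16-fold to 1.79-fold. The smallest of these, STS in the 2B pair, had an interval that included 0 when libraries were scaled by total counts (log2 ratio 0.17, -0.03 to 0.37). SRD5A3 did not differ beyond counting error in either pair with TMM scaling. With total counts, its interval in the LN pair lay below 0 (log2 ratio -0.17, -0.28 to -0.05). HSD17B6 was higher in LN-OlapR than in LNCaP, with an interval that included 0 in the 2B pair. None of the 5 enzymes reached a 2-fold difference in either pair, a count of 0, where 9.46% of 15373 genes did in the LN pair and 10.1% of 15527 in the 2B pair. The counting interval lay above 0 for 4 of 5 enzymes in the LN pair and 3 of 5 in the 2B pair, against 31.7% and 31.5% of all genes. With total counts the number in the 2B pair was 2. The share of all genes higher in both pairs was not counted, so the finding of HSD17B11, SRD5A1 and STS higher in both has no reference here. The counting interval lay below 0 for none in either pair (0 of 5), against 31.3% and 30.8% of all genes. With total counts the number in the LN pair was 1. The median log2 ratio of the 5 enzymes was 0.64 in the LN pair and 0.21 in the 2B pair, and the median of all genes was 0.00 in both. A set of 5 genes chosen with earlier results known is small, and these counts and medians describe these 4 libraries only.

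HSD17B11 is a short-chain dehydrogenase of the endoplasmic reticulum and lipid droplets that can oxidize androstanediol to androsterone. The gene lies at 87336610 to 87391386 of chromosome 4 (minus strand). Its counts were 155 in LNCaP against 241 in LN-OlapR, and 128 in C4-2B against 188 in 2B-OlapR. The normalized CPM were 5.77 against 10.3 and 6.26 against 9.07. Both resistant libraries were above both parental libraries, with intervals of 9.11 to 11.7 and 7.87 to 10.5 normalized CPM against 4.93 to 6.75 and 5.26 to 7.44. Resistant over parental, the log2 ratio was 0.84 (95% interval 0.55 to 1.13) in the LN pair, or 1.79-fold, and 0.53 (0.21 to 0.86) in the 2B pair, or 1.45-fold. The difference between the pairs, 2B minus LN, was -0.31 with an interval of -0.74 to 0.13, so a difference between the pairs was not detectable at this depth. Its 3′ end overlaps the annotated gene AC108516.2 on the same strand, which was not analyzed here.

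SRD5A1, at 6633343 to 6674386 of chromosome 5 (plus strand), had 1165 counts in LNCaP against 1176 in LN-OlapR, and 603 in C4-2B against 930 in 2B-OlapR. The normalized CPM were 43.3 against 50.4 and 29.5 against 44.9. C4-2B was the lowest library, clear of the other 3, which lay between 43.3 and 50.4. This gave a log2 ratio of 0.61 (0.46 to 0.75) in the 2B pair, or 1.52-fold, and 0.22 (0.10 to 0.34) in the LN pair, or 1.16-fold. The ratio was larger in the 2B pair by 0.39 on the log2 scale (0.20 to 0.58), which is beyond counting error, while the spread between cultures of these lines was not measured.

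STS, steroid sulfatase, lies at 7219456 to 7354810 of chromosome X (plus strand). It had 252 counts in LNCaP against 340 in LN-OlapR, and 387 in C4-2B against 454 in 2B-OlapR. The normalized CPM were 9.37 against 14.6 and 18.9 against 21.9. LNCaP had the lowest level, and both lines of the C4-2B background were above both lines of the LNCaP background. The log2 ratio was 0.64 (0.40 to 0.87) in the LN pair, or 1.55-fold, and 0.21 (0.02 to 0.41) in the 2B pair, or 1.16-fold. The second interval is near 0 and included it with total counts. The 2B pair minus the LN pair gave -0.42 (-0.73 to -0.12).

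HSD17B6 is an oxidative 3α-hydroxysteroid dehydrogenase that can return androstanediol to dihydrotestosterone. The gene lies at 56752161 to 56787790 of chromosome 12 (plus strand). It was scarce, with 46 counts in LNCaP against 64 in LN-OlapR, and 61 in C4-2B against 59 in 2B-OlapR. The normalized CPM were 1.71 against 2.74 and 2.98 against 2.85. LNCaP was the lowest, with an interval of 1.28 to 2.28 that met those of LN-OlapR (2.15 to 3.50) and 2B-OlapR (2.21 to 3.67) but not that of C4-2B (2.32 to 3.83). The log2 ratio was 0.68 (0.13 to 1.22) in the LN pair and -0.07 (-0.58 to 0.45) in the 2B pair. The difference of the pairs, -0.74, had an interval of -1.49 to 0.01. The start of HSD17B6 overlaps PRIM1, the DNA primase gene on the other strand, which had 415 to 610 counts. Whether the counting used the strand is not given in the sources used here, so PRIM1 reads in the overlap cannot be told apart from those of HSD17B6.

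SRD5A3, at 55346109 to 55373096 of chromosome 4 (plus strand), had 1314 counts in LNCaP against 1076 in LN-OlapR, and 685 in C4-2B against 662 in 2B-OlapR. The normalized CPM were 48.9 against 46.1 and 33.5 against 31.9. The interval of each resistant line overlapped that of its parental line, and the C4-2B background was lower as a whole. The log2 ratio was -0.08 (-0.20 to 0.03) in the LN pair and -0.07 (-0.22 to 0.09) in the 2B pair. With TMM scaling, these intervals leave room for differences of at most 0.22 on the log2 scale in either pair from counting alone. With total counts, the LN pair had -0.17 (-0.28 to -0.05), an interval below 0. SRD5A3-AS1 overlaps the 3′ end of SRD5A3 on the other strand, with 2 to 8 counts.

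HSD3B1, which acts on DHEA, and AKR1C2 were near the limit of detection. HSD3B1, at 119507198 to 119515054 of chromosome 1 (plus strand), had 6 counts in LNCaP against 7 in LN-OlapR, and 5 in C4-2B against 3 in 2B-OlapR. Its counting intervals overlapped in all 4 libraries, from 0.0492 to 0.620 normalized CPM. The log2 ratio was 0.41 (-1.10 to 1.93) in the LN pair and -0.67 (-2.60 to 1.26) in the 2B pair, so differences up to several-fold in either direction could not have been seen. AKR1C2, which inactivates dihydrotestosterone by reducing it at the 3 position, had 12 counts in LNCaP against 1 in LN-OlapR, and 0 in C4-2B against 3 in 2B-OlapR. A count of 0 in C4-2B allows up to 3 counts, or 0.147 normalized CPM. Only the LNCaP library stood above 3 counts, at 0.446 normalized CPM (0.255 to 0.780). Against the limit of 3 counts in C4-2B, the AKR1C2 level in LNCaP was 3.04-fold higher, a value that leaves out the counting error of LNCaP. The counting intervals were closer, with a lower limit of 0.255 normalized CPM in LNCaP and an upper limit of 0.188 in C4-2B. Reads shared with other AKR1C genes add to this uncertainty. The ratio of LN-OlapR to LNCaP was 0.138, a log2 ratio of -2.85 with a wide interval of -5.30 to -0.41.

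**Figure D2:**
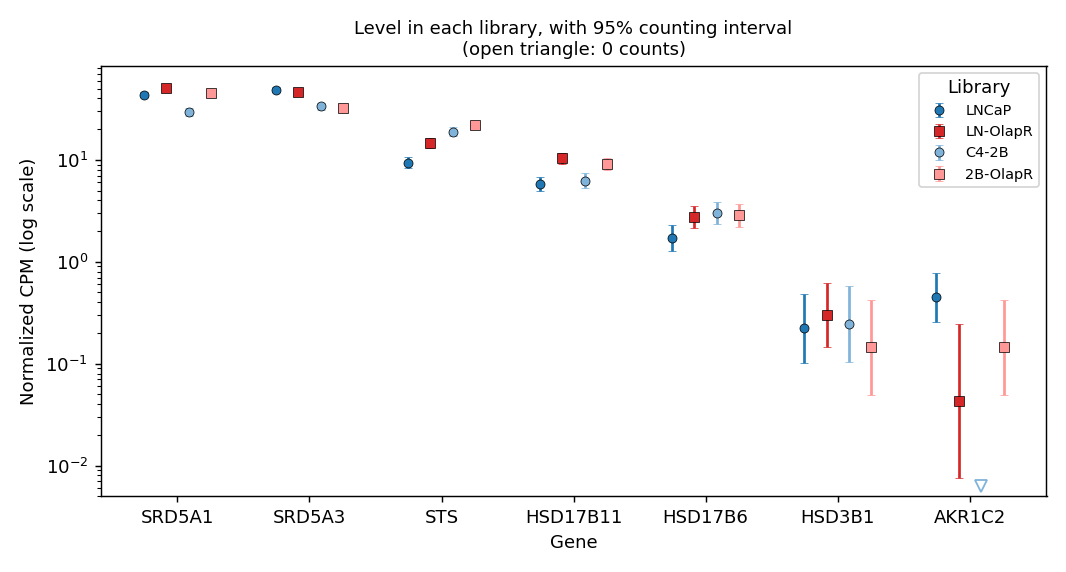
Normalized CPM on a log scale (y axis) of the 7 enzymes (x axis) in the 4 libraries, with bars for the 95% counting interval and an open triangle for a count of 0. HSD17B11 is the enzyme for which both resistant libraries (9.07 and 10.3) stand clear of both parental libraries (5.77 and 6.26).

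The surroundings of AKR1C2 were also examined. GENCODE release 29 places 29 genes within 500 kb of AKR1C1, AKR1C2 and AKR1C3 on chromosome 10, of which 11 are protein coding, and 3 of the 29 were analyzed. NET1, a guanine nucleotide exchange factor for RhoA, had 1641 counts in LNCaP against 833 in LN-OlapR, and 1452 in C4-2B against 977 in 2B-OlapR. The antisense gene CALML3-AS1 had 18 counts in LNCaP against 3 in LN-OlapR, and 1 in C4-2B against 0 in 2B-OlapR. These counts of NET1 and CALML3-AS1 are not scaled for library size. AKR1C4, the fourth AKR1C gene, was not analyzed here.

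The parental lines and the resistant lines were then compared with each other, to set the castration-resistant background beside the castration-sensitive one. These 2 comparisons use the same 4 libraries as the pairs and are not independent of them. STS was higher and SRD5A3 lower in the C4-2B background in both comparisons. STS had a log2 ratio of 1.01 (0.78 to 1.24) for C4-2B over LNCaP, just past 2-fold, and of 0.59 (0.38 to 0.79) for 2B-OlapR over LN-OlapR. SRD5A3 had -0.55 (-0.68 to -0.41) and -0.53 (-0.67 to -0.39). SRD5A1 was lower in C4-2B than in LNCaP, with -0.56 (-0.70 to -0.41), and nearer to equal between the resistant lines, with -0.17 (-0.29 to -0.04), an interval that included 0 with total counts and with upper quartile factors. HSD17B6 was higher in C4-2B than in LNCaP, with 0.80 (0.25 to 1.35), while between the resistant lines the value was 0.05 (-0.45 to 0.56). The intervals of HSD17B11 included 0 in both, with 0.12 (-0.22 to 0.46) and -0.19 (-0.46 to 0.09).

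Of the 5 enzymes, 1 was 2-fold different between the parental lines, where 15.2% of 15580 genes were, and 0 between the resistant lines, where 18.4% of 15539 genes were. Between the parental lines, intervals lay above 0 for 2 enzymes and below 0 for 2, against 34.1% and 36.2% of all genes. Between the resistant lines, they lay above 0 for 1 and below 0 for 2, against 36.3% and 37.1%. The medians of the 5 enzymes were 0.12 and -0.17, beside -0.02 and -0.01 for all genes.

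**Figure D3:**
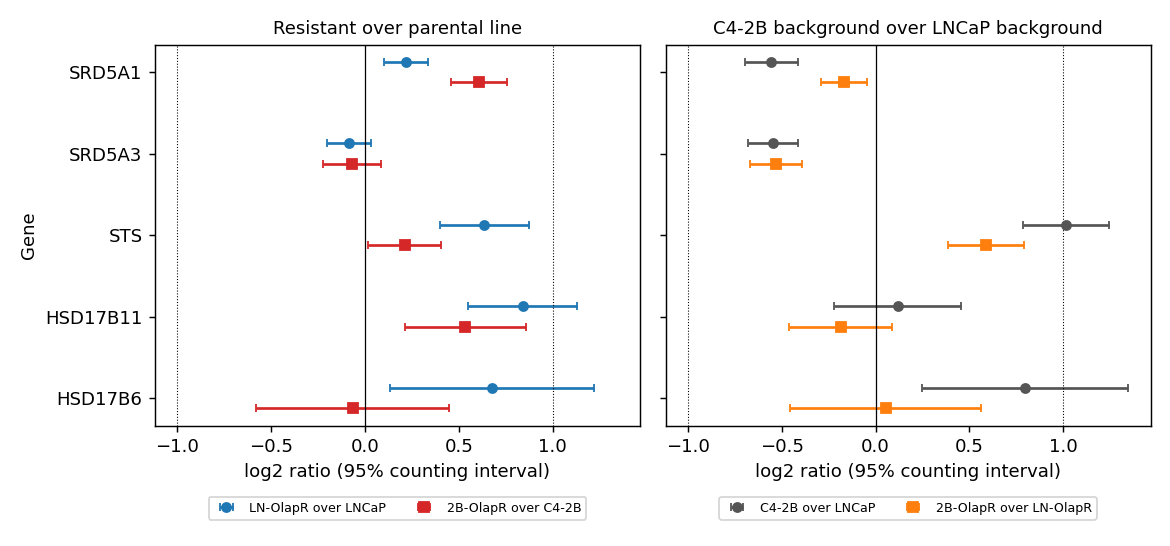
Log2 ratios (x axis) of the 5 enzymes past the minimum level (y axis) with 95% counting intervals, for the resistant over the parental line on the left and for the C4-2B over the LNCaP background on the right. Dotted lines mark 2-fold, which STS reaches between the parental lines with 1.01, and HSD17B11, SRD5A1 and STS lie to the right of 0 in both pairs.

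STS was the 1 enzyme, of those averaging 1 normalized CPM or more, whose level ranged over more than 1 log2 unit across the 4 libraries (1.22). The genes whose centered log2 levels were closest to those of STS, by Euclidean distance over the 4 libraries among genes averaging 10 normalized CPM or more, were ZNHIT2, TMEM107 and SLC9B2, at distances of 0.102, 0.105 and 0.118. TMEM107 had 12.9 normalized CPM in LNCaP against 18.4 in LN-OlapR, and 25.2 in C4-2B against 30.4 in 2B-OlapR. With 4 points per gene, a close match is a description of order and size only.

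The sequences ahead of HSD17B11, SRD5A1 and STS, the enzymes higher in both resistant lines, were read from the RefSeq promoter table of GRCh38.p14, up to the gene start in GENCODE release 29. They are printed because these 3 genes were higher in the resistant line of both pairs, for STS in the 2B pair not beyond counting error under each scaling. None of the motifs searched was found in the stretches printed. The STS stretch is the one at the GENCODE gene start, and motifs were found at other annotated STS starts, as given below.
HSD17B11, minus strand, chr4:87391387-87391438: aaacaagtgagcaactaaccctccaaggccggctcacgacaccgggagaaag
SRD5A1, plus strand, chr5:6633190-6633342: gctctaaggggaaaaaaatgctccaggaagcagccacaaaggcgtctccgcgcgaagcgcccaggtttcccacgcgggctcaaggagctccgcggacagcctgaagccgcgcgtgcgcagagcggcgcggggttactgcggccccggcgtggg
STS, plus strand, chrX:7219206-7219455: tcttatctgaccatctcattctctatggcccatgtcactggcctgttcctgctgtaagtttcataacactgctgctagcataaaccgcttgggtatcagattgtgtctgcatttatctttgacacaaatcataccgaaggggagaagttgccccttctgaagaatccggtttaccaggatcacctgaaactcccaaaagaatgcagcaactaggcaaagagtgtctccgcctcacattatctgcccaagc

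The motifs were searched on both strands from 250 bases before to 50 bases after each RefSeq start, in 15 windows of 9 of the 10 genes. They were the androgen response element and its single repeat AGAACA, the antioxidant response element TGACNNNGC, the AP-1 site TGAGTCA and the NR5A1 site CAAGGTCA. The single repeat is part of the full androgen response element. The androgen response element was found in 1 of 35116 windows and in none of these genes (0 of 15 windows). The single repeat, held by 14.8% of all windows, was found at 2 of the 5 annotated STS starts. The antioxidant response element, held by 13.3%, was found at another STS start and once at SRD5A3, as GCCGCGTCA from 22 to 14 bases before the start. No window of these genes held the AP-1 site (0 of 15, against 4.95% of all windows) or the NR5A1 site (0 of 15, against 1.28%). No match says only that these letters are not in these windows.

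Other genes of steroid supply, conversion and removal were examined in 6 lists, of which 56 of 75 genes were analyzed. In the LN pair, 4 of 44 genes past the minimum were 2-fold higher and 6 were 2-fold lower in LN-OlapR, and in the 2B pair, 5 of 46 were higher and 7 lower in 2B-OlapR. Their medians were 0.05 and -0.08. Of all genes past the minimum, 713 of 15373 were 2-fold higher and 742 lower in the LN pair. In the 2B pair, 687 of 15527 were higher and 877 lower. These all-gene numbers are the reference for the counts of each list below.

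Genes that bring cholesterol to pregnenolone differed in both directions. CYP11A1 was rare, with 14 counts in LNCaP against 42 in LN-OlapR, and 51 in C4-2B against 4 in 2B-OlapR. This gave a log2 ratio of 1.76 (0.90 to 2.62) in the LN pair and -3.53 (-4.92 to -2.14) in the 2B pair. FDX1, the ferredoxin that passes electrons to mitochondrial cytochromes P450, had 119.6 normalized CPM in 2B-OlapR and 33.7 to 44.8 in the other libraries. STARD4, a cholesterol transfer protein, had a log2 ratio of -0.93 in the LN pair and 1.35 in the 2B pair. NPC1, which exports cholesterol from lysosomes, was higher in both resistant lines, with log2 ratios of 1.08 (1.01 to 1.14) and 0.74 (0.66 to 0.82). The highest level per length in this list was that of TSPO, with 112.7 to 288.9 TPM. Of 11 genes past the minimum, the LN pair had 2 that were 2-fold higher and 0 that were lower, and the 2B pair had 3 and 1. The medians were 0.00 and -0.08.

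Electron donors and cofactor genes had medians of 0.04 in the LN pair and -0.32 in the 2B pair. CYB5A, whose product aids the lyase step of CYP17A1, was lower in both resistant lines, with 211.1 normalized CPM in LNCaP against 157.2 in LN-OlapR, and 197.5 in C4-2B against 130.7 in 2B-OlapR. It was chosen after its values were seen. PAPSS1, which makes the sulfate donor for steroid sulfation, was the 1 gene of 7 past 2-fold, with 69.5 normalized CPM in LNCaP and 33.2 in LN-OlapR (log2 ratio -1.06, -1.18 to -0.94). In the 2B pair, 0 of 7 were past 2-fold, and PAPSS1 had -0.46 (-0.63 to -0.30).

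Of the other 17β-hydroxysteroid dehydrogenases and related reductases, RDH16 stood apart. RDH16, a microsomal dehydrogenase of retinol and 3α-hydroxysteroids, had 13 counts in LNCaP against 51 in LN-OlapR, and 128 in C4-2B against 57 in 2B-OlapR, with log2 ratios of 2.14 in the LN pair and -1.18 in the 2B pair. All 9 genes of this list past the minimum had a positive log2 ratio in the LN pair (median 0.27), against 7625 of all 15373 genes. Their interval lay above 0 for 7 of 9, against 31.7% of all genes. The uniform direction depends on the minimum. Under it in the LN pair, HSD17B14 had -1.05 (-1.93 to -0.16), HSD17B2 3.07 (1.46 to 4.68) and RDH5 0.14 (-0.74 to 1.01). In the 2B pair, 4 of 10 genes past the minimum were positive (median -0.14), against 7761 of all 15527 genes. HSD17B10, a mitochondrial dehydrogenase, was the most abundant, with 287.6 to 335.1 TPM. Among other aldo-keto reductases, 0 of 3 genes past the minimum were past 2-fold in either pair, with medians of 0.23 and 0.05, and AKR1A1 was the most abundant, with 158.0 to 241.3 TPM.

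Genes of sulfation, glucuronidation and oxidation of steroids had the lowest medians of the 6 lists, -4.24 in the LN pair and -1.28 in the 2B pair. Of all genes, 742 of 15373 were 2-fold lower in the LN pair and 877 of 15527 in the 2B pair. Of 9 genes of this list past the minimum, 5 were 2-fold lower in each resistant line than in its parental line. In the LN pair these were all UGT2B genes, a family in which some members attach glucuronic acid to androgens. UGT2B17 had 1287 counts in LNCaP against 8 in LN-OlapR, and 116 in C4-2B against 18 in 2B-OlapR. UGT2B10 had 294 counts in LNCaP and 0 in LN-OlapR. Against the limit of 3 counts in LN-OlapR, its level in LNCaP was 85.0-fold higher, a value that leaves out the counting error of LNCaP. The UGT2B10 counting intervals were apart, with a lower limit of 9.76 normalized CPM in LNCaP and an upper limit of 0.165 in LN-OlapR. The UGT2B genes are near copies, so reads can be split among them. In the 2B pair the fifth gene was CYP1B1, which hydroxylates estrogens. SULT2B1, a hydroxysteroid sulfotransferase, was the 1 gene 2-fold higher there, with a log2 ratio of 1.54 (1.31 to 1.78). CYP1B1 and SULT2B1 were named after their values were seen. UGDH, which makes the glucuronic acid donor, was the most abundant per length, with 28.7 to 56.4 TPM.

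In the list of steroid transport, 1 of 5 genes past the minimum was 2-fold higher in the LN pair, 1 of 6 in the 2B pair and 0 lower in either, with medians of 0.06 and 0.04. SLCO4A1, an organic anion transporter, was higher in both resistant lines, with log2 ratios of 1.07 and 0.89. SLCO3A1 had 0 counts in LNCaP and LN-OlapR, which allows 0.112 and 0.129 normalized CPM, and 52 in C4-2B against 248 in 2B-OlapR (log2 ratio 2.22, 1.80 to 2.65). The list also holds SLC35B2 and SLC35B3, transporters of the sulfate donor and not of steroids. SLC35B2 was highest of the list per length, with 71.2 to 156.1 TPM.

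**Figure D4:**
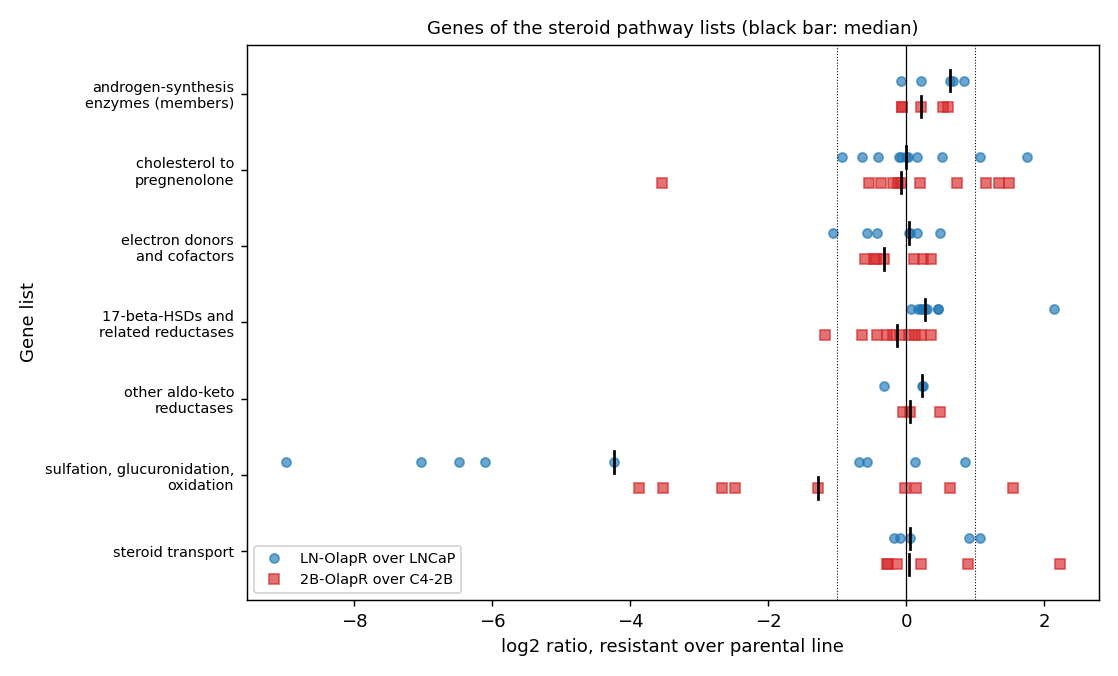
Log2 ratios of resistant over parental line (x axis) for the enzymes and the 6 other gene lists (y axis), with 1 point per gene past the minimum level, circles for the LN pair, squares for the 2B pair, black bars for medians and dotted lines for 2-fold. The 5 enzymes lie between -0.08 and 0.84, whereas UGT2B genes reach far lower. The leftmost circle, UGT2B10, has 0 counts in LN-OlapR, so its place depends on the pseudocount.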

How the data were processed

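Total RNA from 4 prostate cancer lines was made into stranded mRNA libraries. The authors deposited estimated counts per gene, not scaled between libraries. The submitters' processing notes name STAR, Partek, GRCh38 and hg38, while versions, annotation and strand setting are not given in the sources used here. Of the values, 46.2% were not whole, and every gene summed to at least 10.0. The hours in culture follow the deposited description, and the paper gives a longer time.

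Values were rounded, scaled by TMM (edgeR 4.0.16, R 4.3.3) and compared in Python 3.11.15 with numpy 2.4.6 and pandas 2.3.3. Ratios used a pseudocount of 0.5 and a minimum mean of 1 normalized CPM over both libraries. Intervals (95%) are normal for ratios and Wilson for levels, and the floor is 3 counts. No replicate existed, so no model was fitted. The ratio code was tested on simulated data. TPM used GENCODE release 29 lengths, matched for 94.5% of genes. Alternatives were DESeq2 1.42.0 size factors, total counts, upper quartile factors, a pseudocount of 2, minimum means of 0.1, 10 or none, unrounded values and median transcript length.

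The enzymes, lists and rule for named genes were chosen with earlier results of these data known. From each list the rule takes genes past 2-fold, up to 3 per pair, and the highest per length, which for 1 list is not reported here. NET1 and CALML3-AS1 follow from the 500 kb rule, ZNHIT2, TMEM107 and SLC9B2 from likeness.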

Additional observations from a re-analysis of the deposited data

Results flagged for a closer look

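Of the genes named above that averaged 1 normalized CPM or more in both pairs, 7 lay on opposite sides of 0 in the 2 pairs. Both counting intervals of each were apart from 0. The difference between the pairs was not tested, as each line has 1 library. Genes were named mostly for passing 2-fold, so 7 is not a full count of the lists, and the share of all genes was not computed. FDXR (0.52 in the LN pair and -0.36 in the 2B pair) and HSD11B2 (0.21 and -0.43) also had intervals on opposite sides of 0. None of the 5 enzymes past this minimum did so (0 of 5). AKR1C2, which is under it, had -2.85 in the LN pair and 2.79 (-1.49 to 7.06) in the 2B pair, from 0 to 12 counts per library. CYP11A1 had a log2 ratio of 1.76 in the LN pair and -3.53 in the 2B pair, from 4 to 51 counts per library. RDH16 had 2.14 in the LN pair and -1.18 in the 2B pair, from 13 to 128 counts. FDX1 had -0.41 in the LN pair and 1.48 in the 2B pair. STARD4 had -0.93 in the LN pair and 1.35 in the 2B pair. Of the marker genes named above, KLK3 had 5.66 in the LN pair and -0.37 in the 2B pair. PDGFRB had 1.52 and -0.73, and CD68 had 3.59 and -0.94, from 11 to 120 counts for CD68 and 19 to 56 for PDGFRB. Other luminal markers also moved in opposite directions. HOXB13 had 420.9 normalized CPM in LNCaP against 381.5 in LN-OlapR, and 406.1 in C4-2B against 507.3 in 2B-OlapR. KLK2 had 126.4 in LNCaP against 747.6 in LN-OlapR, and 246.9 in C4-2B against 233.0 in 2B-OlapR.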

How the results depend on the processing

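All 28 log2 ratios of the 7 enzymes, in 4 comparisons, kept their sign under the 5 alternatives of scaling, pseudocount and rounding, and none left its counting interval. With total counts, the number of enzymes with an interval below 0 was 1 in the LN pair (SRD5A3, log2 ratio -0.17) and 1 between the resistant lines, where SRD5A1 no longer lay below 0. The number above 0 in the 2B pair was 2 with total counts, as the interval of STS was -0.03 to 0.37. With upper quartile factors, the number below 0 between the resistant lines was also 1. With a minimum mean of 0.1 normalized CPM, AKR1C2 and HSD3B1 entered where they passed, and the number past 2-fold was 1 in the LN pair and 2 between the parental lines, and the number with an interval below 0 was 1 in the LN pair. The medians were then 0.41 in the LN pair and 0.07 in the 2B pair. With no minimum, these numbers were again 1, 2 and 1, and 1 was past 2-fold in the 2B pair and between the resistant lines. With a minimum of 10, SRD5A1, SRD5A3 and STS were left, 2 had an interval above 0 in the LN pair and 1 between the parental lines, and the medians were 0.22 in the LN pair and -0.55 between the parental lines. DESeq2 size factors, a pseudocount of 2 and unrounded values left each count within 1.5 times its value and each median within its spread. Median transcript length moved 21 of 28 levels in TPM outside their counting intervals. Summing the AKR1C genes was not run, as AKR1C2 alone was analyzed. Each line has 1 library and the labels give no replicate numbers, so no replicate could be left out. A fit over both pairs with the background as a block, which would treat the LN and 2B pairs as replicates of each other and leave 1 residual degree of freedom, was not run. Depth limits AKR1C2 and HSD3B1, with at most 12 counts per library.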
